A study of Mus musculus with 20 samples.

Results

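The comparison described here is D + Q against vehicle in overloaded old muscle, for each gene that reached 10 counts or more in any 5 of the 10 mice compared. This minimum kept 15238 of the 22660 genes in the table, and 10 of the 20 mice of the study belong to the comparison. The animals were male C57BL/6J mice by the study's paper and aged 2 years by the labels, and each library came from the plantaris of 1 mouse. D + Q is dasatinib, a tyrosine kinase inhibitor, at 5 mg/kg and quercetin, a plant flavonoid, at 50 mg/kg, and vehicle is the polyethylene glycol they were dissolved in. In D + Q MOV mice (5 animals) the plantaris was mechanically overloaded (MOV) by taking out part of the soleus and gastrocnemius, and the drugs were given by gavage on days 7 and 10 with collection on day 14. Vehicle MOV mice (5 animals) had the same surgery and gavage without the drugs. D + Q sham and vehicle sham mice (5 animals each) had surgery without muscle removal and are given below only as values beside the MOV mice and in the test of whether the D + Q effect differed between surgeries. Gavage of the sham mice is given as days 7 and 10 in the treatment protocol, while the series design text gives a later second day for them. The 4 groups share no mouse, and whole muscle was sequenced, so every value mixes fibers with the other cells of the tissue. Total counts were 18879818 to 23076398 (median 19727134) in D + Q MOV mice, 18260903 to 22092838 (median 18647949) in vehicle MOV mice, 18535681 to 23468048 (median 22393065) in D + Q sham mice and 17887532 to 26234518 (median 19543043) in vehicle sham mice. Markers of muscle fibers were high in all 10 MOV libraries, with skeletal alpha-actin (Acta1) at 22003 ± 2465 against 26004 ± 3710.0 CPM (mean ± SD of 5 mice in each group, here and below, with D + Q named first). Levels are in CPM, each gene's share of the TMM-scaled library total. Differences are log2 fold changes of D + Q minus vehicle.

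Dasatinib and quercetin are used together as a senolytic, a treatment meant to kill senescent cells, which have left the cell cycle for good and secrete cytokines, proteases and growth factors. Overloaded muscle enlarges its fibers and at the same time rebuilds the matrix around them, a task carried out by fibroblasts, tenocytes and macrophages that respond to load and damage. Dasatinib blocks kinases of the Src and Abl families, the PDGF receptors, Kit and the discoidin domain receptors, several of which act in those cells.

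Several libraries stood apart before any gene was tested. On the first principal component of all 20 libraries (69.2% of the variance), which separated MOV from sham mice, vehicle MOV mouse 2 lay at 36.2 and vehicle MOV mouse 4 at 83.3. The other vehicle MOV mice lay at 58.2 to 62.7, D + Q MOV mice at 59.6 to 81.0 and sham mice at -76.1 to -47.9. Mouse 2 was thus the MOV library nearest to sham, and mouse 4 the farthest from it. Among MOV libraries alone mouse 2 had a median correlation of 0.975 with the rest, where the others had 0.979 to 0.983. The vehicle group was also the more spread of the pair. Its median SD of log2 CPM per gene was 0.222 against 0.168 with D + Q, and the SD was larger with vehicle in 68.1% of genes. With single vehicle mice left out that share ran from 60.3% (without mouse 4) and 60.9% (without mouse 2) to 69.0% (without mouse 1), and it was 55.2% without vehicle mice 2 and 5. An SD over fewer mice tends to be smaller, so these shares are not strictly comparable with 68.1%. A signal outside messenger RNA also differed between the groups. The share of counts on 18S ribosomal RNA (Rn18s) was 1.03, 1.01, 1.15, 1.17 and 1.69% in D + Q MOV mice and 0.697, 0.924, 0.728, 0.724 and 0.959% in vehicle MOV mice. Every D + Q library lay above every vehicle library (two-sided exact permutation p = 0.00794, the smallest that 5 against 5 mice allow), and the part of this RNA residue in the results below was not tested. Sham libraries held 0.549 to 0.762% with D + Q (mean 0.653%) and 0.592 to 1.22% with vehicle (mean 0.797%), so the means stood in the other order there, and total counts did not separate the MOV groups (exact permutation p = 0.508).

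**Figure D1:**
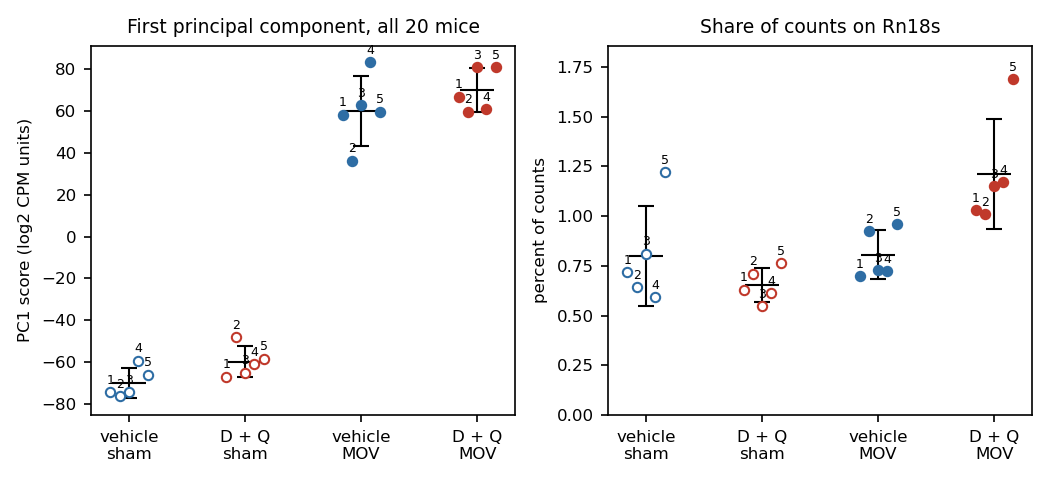
Left, position of each library on the first principal component of all 20 mice, and right, percent of counts on Rn18s, by group of 5 mice with mice numbered and bars for mean ± SD. Vehicle MOV mouse 2 lies at 36.2 and mouse 4 at 83.3 on the component, and all D + Q MOV mice lie above all vehicle MOV mice in Rn18s share.

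Collagens, small proteoglycans and other matrix genes leaned higher in D + Q than in vehicle MOV mice, and respiratory chain subunits leaned lower. No list of genes was tested as a set. Differences were small, with 5th and 95th percentiles of -0.33 and 0.42 over all genes, and few single genes passed a test. After Benjamini-Hochberg adjustment of edgeR's quasi-likelihood p-values, 0 of 15238 genes (0%) were called at 0.05, and DESeq2 called 11 (0.0722%), of which 6 were higher and 5 lower. Adjusted calls by limma-voom with quality weights numbered 0. At an unadjusted p under 0.05, edgeR counted 638 genes as higher with D + Q (4.19% of those tested) and 702 as lower (4.61%), while DESeq2 counted 1501 both ways. Groups did not overlap, with all 5 D + Q mice above all 5 vehicle mice, in 105 genes (0.689%), and with all 5 below in 120 (0.788%). These shares are the background against which each list below is read, together with a median difference of 0.0020 and 50.5% of genes higher. Members and lists were chosen with earlier results of these data known. Genes of a list were also measured in the same mice, so they are not independent tests. A list's count above these shares is thus a description and no separate support. A mean difference of at least 1.5-fold was seen in 302 genes on the higher and 212 on the lower side. Leaving out vehicle mouse 4 gave 1468 higher and 1174 lower genes and 2 adjusted calls, while leaving out vehicle mice 2 and 5, a choice made after the data had been seen, gave 327 and 272, with 413 genes of the 1340 still under the threshold. Scaling by total counts alone moved the median of all genes to 0.056 and the share of higher genes among the unadjusted calls from 47.6% to 69.0%. The edgeR adjusted p of each gene named below was at least 0.352 in this comparison, so their values are descriptions unless an adjusted p of DESeq2 is printed. Differences printed beside it are from the edgeR fit, so their ratio to the SE does not give the DESeq2 p. Exact permutation p-values of single genes below are unadjusted. Apart from genes the paper names, these genes were picked by a low edgeR p in the same mice. Their exact p is thus no separate support. Of 185 genes in all, 57 turned or moved over 1.5 times in log2 difference with some single mouse left out, 83 without vehicle mice 2 and 5 and 29 with total counts.

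Of the 6 genes higher by DESeq2, 5 encode proteins of the extracellular matrix or its turnover. Itgbl1 (chr14:123897383-124215765, GRCm39, as all gene positions below), a secreted protein with repeats like those of integrin beta chains, was at 64.0, 51.9, 60.3, 62.0 and 56.1 CPM in D + Q mice 1 to 5 and 44.0, 36.2, 38.6, 43.7 and 45.8 CPM in vehicle mice 1 to 5. The groups did not overlap, and the difference was 0.50 (SE 0.0820, DESeq2 adjusted p = 0.00109). Abi3bp (chr16:56298185-56510576), a matrix protein that binds collagen, was at 91.1, 72.8, 102, 93.4 and 95.2 CPM with D + Q and 57.4, 47.4, 66.3, 72.6 and 58.2 CPM with vehicle. Its lowest D + Q value, in mouse 2, was only just above vehicle mouse 4, and the difference was 0.59 (SE 0.112, DESeq2 adjusted p = 0.00812). Cathepsin K (Ctsk, chr3:95406178-95416732), a cysteine protease that cleaves collagen, was at 93.1, 83.1, 108, 85.8 and 87.4 CPM with D + Q and 64.6, 55.6, 67.0, 77.9 and 68.7 CPM with vehicle. Vehicle mouse 4 came nearest to the D + Q mice without reaching them, and the difference was 0.45 (SE 0.0936, DESeq2 adjusted p = 0.0275). Col11a1 (chr3:113824134-114014367), the chain that sets the width of collagen fibrils, was at 40.2, 31.3, 43.4, 44.0 and 50.9 CPM with D + Q and 29.4, 23.1, 30.7, 26.5 and 32.0 CPM with vehicle. Here the groups overlapped, since D + Q mouse 2 lay below vehicle mouse 5, and the difference was 0.56 (SE 0.120, DESeq2 adjusted p = 0.0402). Fibromodulin (Fmod, chr1:133964992-133976015), a collagen-binding proteoglycan, was at 180.0, 153, 168, 189.9 and 182 CPM with D + Q and 133, 111, 114, 141 and 147 CPM with vehicle, with no overlap. Its difference was 0.43 (SE 0.0918, DESeq2 adjusted p = 0.0275). Cass4 (chr2:172234618-172275677), an adhesion scaffold of the Cas family, was low in both groups, at 1.88, 2.02, 2.16, 1.33 and 1.97 CPM with D + Q and 0.512, 0.419, 0.923, 0.745 and 1.13 CPM with vehicle. All D + Q mice exceeded all vehicle mice, and its difference of 1.32 (SE 0.291, DESeq2 adjusted p = 0.0275) rests on few counts.

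Further genes were among the 10 with the lowest edgeR p on the higher side without an adjusted call. Itga11, a collagen receptor chain of fibroblasts, was at 42.8, 29.8, 39.8, 39.1 and 39.8 CPM with D + Q and 26.1, 18.4, 28.9, 31.0 and 22.9 CPM with vehicle, with D + Q mouse 2 inside the vehicle range. Itpkb, a kinase of inositol trisphosphate, Chrdl1, a secreted antagonist of bone morphogenetic proteins, and Fap, a surface protease of activated fibroblasts, also had slightly overlapping groups. Their differences were 0.59 for Itga11, 0.35 for Itpkb, 0.72 for Chrdl1 and 0.45 for Fap. Chrdl1, at 14.2 ± 2.29 against 8.60 ± 2.26 CPM, had the widest gap of these. Within the 10 sham mice, the same genes differed by 0.57, 0.34, 1.03 and 0.32 in the same order.

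Among the 5 genes lower by DESeq2, Tcf15, a transcription factor of muscle endothelium and embryonic somites (chr2:151985474-151991034), was at 7.31, 7.51, 7.81, 7.12 and 6.15 CPM in D + Q mice 1 to 5 and 9.91, 10.2, 11.3, 11.0 and 10.4 CPM in vehicle mice 1 to 5. The highest D + Q mouse was well below the lowest vehicle mouse, and the difference was -0.55 (SE 0.104, DESeq2 adjusted p = 0.00305). Ckmt2 (chr13:92001503-92025608), the mitochondrial creatine kinase of muscle fibers, was at 613, 672, 563, 691 and 699.8 CPM with D + Q and 839.6, 861, 857, 760.4 and 835 CPM with vehicle. Vehicle mouse 4 was low within its group but still above every D + Q mouse, and the difference was -0.36 (SE 0.0832, DESeq2 adjusted p = 0.00812). The transferrin receptor (Tfrc, chr16:32427556-32451612), which takes iron into cells, was at 81.5, 89.9, 74.7, 97.4 and 77.8 CPM with D + Q and 109, 116, 126, 109 and 190.4 CPM with vehicle. Vehicle mouse 5 stood far above the rest, the other vehicle mice still exceeded all D + Q mice, and the difference was -0.63 (SE 0.148, DESeq2 adjusted p = 0.0495). Timmdc1 (chr16:38309908-38343041), an assembly factor of respiratory complex I, was at 26.7, 29.0, 27.7, 25.9 and 28.5 CPM with D + Q and 32.6, 38.0, 36.2, 31.2 and 36.8 CPM with vehicle. The groups were narrow and did not overlap, for a difference of -0.34 (SE 0.0729, DESeq2 adjusted p = 0.0402). Llph-ps2, a processed pseudogene, was at 1.03, 0.659, 1.03, 0.666 and 0.504 CPM with D + Q and 2.09, 3.71, 1.57, 1.19 and 3.14 CPM with vehicle. All vehicle mice were above all D + Q mice, but reads of its parent gene may be split with it, so its difference of -1.57 (SE 0.341, DESeq2 adjusted p = 0.0275) is uncertain. Whether counting used strand is not given in the sources used here, so the values of genes that overlap another gene are uncertain too, among them Itgbl1 (Fgf14), Abi3bp (Tfg), Timmdc1 (Cd80), Cass4 (Gm14455) and Ckmt2 (1700119I11Rik).

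Other genes among the 10 with the lowest edgeR p on the lower side had no adjusted call. Mrnip, which takes part in the repair of DNA breaks and overlaps the gene of the autophagy receptor Sqstm1, was at 0.673, 0.747, 0.835, 0.718 and 0.806 CPM with D + Q and 1.58, 1.44, 1.96, 1.64 and 1.47 CPM with vehicle. Its groups were far apart relative to their spread, with a difference of -1.09 at under 2 CPM. Nudt7, a peroxisomal hydrolase of coenzyme A, did not overlap either, at 11.6 ± 0.952 against 15.2 ± 1.22 CPM and a difference of -0.38. The circadian repressor Nr1d1 (difference -0.46), the membrane carbonic anhydrase Car14 (-0.56) and the ketone enzyme Bdh1 (-0.50) had overlapping groups. Bdh1 was at 49.1, 47.4, 42.5, 52.9 and 48.9 CPM with D + Q and 80.7, 81.3, 61.7, 48.2 and 69.5 CPM with vehicle. Vehicle mouse 4 was the only vehicle mouse within the D + Q range. Without it the difference was -0.60 (edgeR quasi-likelihood adjusted p = 0.0444), and the choice of this mouse fixed that the groups stood apart. The Bdh1 difference was -0.43 without vehicle mouse 2 and -0.40 without vehicle mice 2 and 5.

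**Figure D2:**
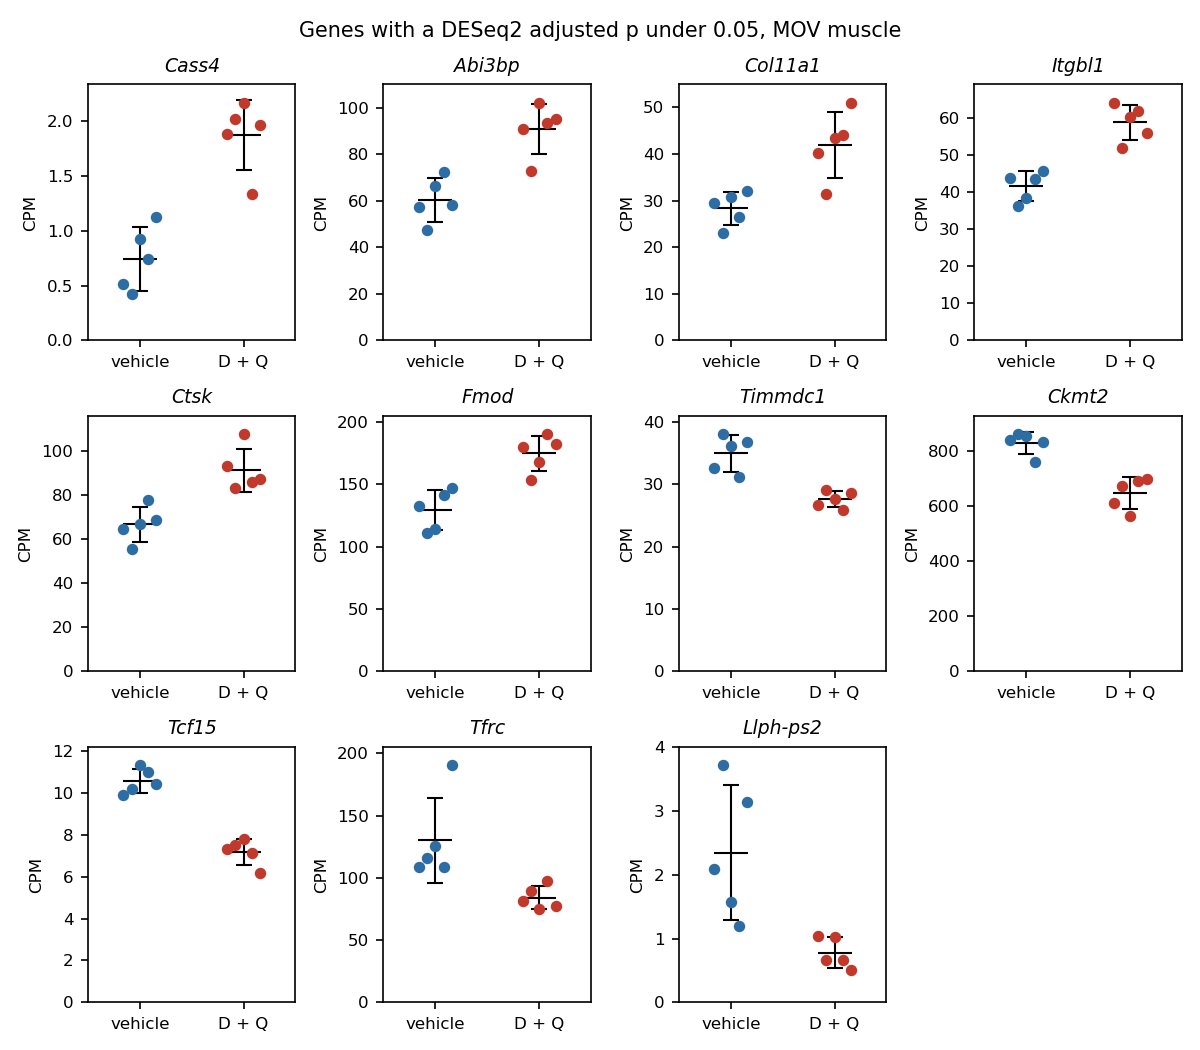
CPM of the 11 genes with a DESeq2 adjusted p under 0.05, for 5 vehicle and 5 D + Q MOV mice each, with bars for mean ± SD and axes from 0. Col11a1 is the gene whose groups overlap, and the other 10 genes have all mice of one group above all of the other.

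Most collagen genes leaned higher with D + Q. All 10 fibrillar collagen genes tested were higher with D + Q, 7 of them at an unadjusted p under 0.05, with a median difference of 0.39. The leading fibril chain in overloaded muscle by counts, Col3a1, was at 6286, 5659, 7415, 5871 and 6484 CPM with D + Q and 4305, 2846, 5021, 6077 and 4986 CPM with vehicle. Vehicle mouse 2 was lowest by far, and only vehicle mouse 4 lay within the D + Q range. Col1a1 was at 3410.2 ± 551 against 2652 ± 533 CPM, Col1a2 at 3346 ± 491 against 2478 ± 512 CPM and the minor chain Col11a2 at 15.7 ± 2.21 against 11.8 ± 2.01 CPM. Of basement membrane collagens, 7 of 7 were higher with a median of 0.18 (0.072 without D + Q mouse 1, 0.30 without D + Q mouse 5, 0.31 without vehicle mouse 4 and 0.078 without vehicle mice 2 and 5), and Col4a5 (6.84 ± 1.31 against 4.78 ± 1.06 CPM) was the member under the threshold, while Col4a1 was at 331 ± 38.0 against 304 ± 62.8 CPM. Members under the threshold numbered 2 without D + Q mouse 2, 3 without vehicle mouse 4 and 0 without vehicle mice 2 and 5. Among beaded, network and fibril-associated collagens 11 of 13 were higher (median 0.32, or 0.20 without vehicle mice 2 and 5), led by Col6a6 (0.76), Col6a5 (0.85), Col14a1 (0.51) and Col8a2 (0.43). Col6a1, with the most counts of that list, differed by 0.29 (0.18 without vehicle mouse 2). Over the 30 tested collagen chains 28 were higher, 12 at an unadjusted p under 0.05, with 0 pairs of groups that did not overlap and a median of 0.33. For the fibrillar list the count of 7 was 4 without D + Q mouse 3, 6 without vehicle mice 2 and 5 and 1 in the fit of all 20 mice, and the median without vehicle mice 2 and 5 was 0.31. More matrix RNA per cell and more matrix-producing cells cannot be told apart in whole muscle.

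Enzymes that fold, hydroxylate and crosslink collagen were all higher too, 24 of 24, yet only Plod2, a lysyl hydroxylase that prepares crosslinks, had an unadjusted p under 0.05. Plod2 was at 48.1, 52.9, 69.6, 47.1 and 75.8 CPM with D + Q and 35.9, 25.4, 46.0, 50.9 and 42.9 CPM with vehicle. D + Q mice 3 and 5 were high and D + Q mice 1 and 4 lay within the vehicle range, for a difference of 0.54. The collagen chaperone Serpinh1, the most counted of them, was at 335 ± 62.3 against 286 ± 66.1 CPM. The median over the list was 0.23, against 0.12 without vehicle mouse 2 and 0.11 without vehicle mice 2 and 5, and the count of 1 was 3 without D + Q mouse 2, 2 without D + Q mouse 4 or vehicle mouse 5, 9 without vehicle mouse 4 and 0 without vehicle mice 2 and 5.

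Small leucine-rich proteoglycans, which coat collagen fibrils and bind growth factors, showed the largest median among the matrix lists, 0.43. All 12 tested members were higher and 9 had an unadjusted p under 0.05, against 4.19% of all genes. Prelp was at 96.4, 89.1, 78.2, 109 and 90.3 CPM with D + Q and 72.1, 54.9, 71.3, 82.0 and 59.6 CPM with vehicle. Only vehicle mouse 4 reached the D + Q range, and the difference was 0.44 (exact permutation p = 0.0159). Lumican (Lum) was at 238, 213, 290.0, 214 and 203 CPM with D + Q and 156, 127, 179, 218 and 161 CPM with vehicle, with vehicle mouse 4 again the highest control, and the difference was 0.46 (exact permutation p = 0.0317). Asporin (Aspn) differed by 0.47, decorin (Dcn) by 0.42 and biglycan (Bgn) by 0.28. Without vehicle mice 2 and 5 the list kept a median of 0.32, with 6 members under the threshold. Within sham mice the list's median was 0.43.

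Elastic fiber and microfibril genes were higher in 17 of 18 members with a median of 0.24. Ltbp1, which tethers latent TGF-beta to the matrix, was at 46.7 ± 9.46 against 34.2 ± 7.34 CPM, and fibrillin Fbn2, which is laid down in growing tissue, at 33.3 ± 7.36 against 23.3 ± 6.92 CPM. The major fibrillin Fbn1 was at 612, 572, 554, 515 and 507 CPM with D + Q and 383, 209.9, 463, 564 and 421 CPM with vehicle. Vehicle mouse 2 had the lowest Fbn1 and vehicle mouse 4 alone lay within the D + Q range. The median of the elastic fiber list was 0.13 without vehicle mouse 2, 0.37 without vehicle mouse 4 and 0.049 without vehicle mice 2 and 5. Of the matricellular proteins, secreted regulators of how cells meet the matrix, 13 of 16 were higher (median 0.32, or 0.20 without vehicle mouse 2, 0.49 without vehicle mouse 4 and 0.17 without vehicle mice 2 and 5). Thrombospondin 2 (Thbs2, 0.49), Comp (0.44) and Thbs3 (0.35, or 0.23 without vehicle mouse 2) were the members with an unadjusted p under 0.05, a count that was 1 without D + Q mouse 3 or 4 or vehicle mice 2 and 5 and 9 without vehicle mouse 4. Periostin (Postn), with the most counts, was at 1816, 1501, 2786, 1795 and 2437 CPM with D + Q and 1761, 1108, 1808, 1989 and 1842 CPM with vehicle. Vehicle mouse 2 was again low and the other vehicle mice lay within the D + Q range. Over all of these matrix lists together 94 of 100 tested genes were higher and 27 had an unadjusted p under 0.05, with a median of 0.28 in MOV and 0.35 in sham mice. The counts of the single lists moved with the mice left out. The elastic fiber count of 2 was 7 without vehicle mouse 4 and 0 without vehicle mice 2 and 5. For beaded, network and fibril-associated collagens the count of 4 was 2 without vehicle mice 2 and 5.

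Genes for enzymes that cleave the matrix and for inhibitors that restrain them were mostly higher. Of the matrix metalloproteinases 10 of 12 tested were higher, 4 with an unadjusted p under 0.05 (median 0.20, or 0.41 with the higher count minimum and 0.31 without D + Q mouse 2), and 5 more members were below the count minimum. Gelatinase Mmp2 was at 504, 413, 557, 454 and 485 CPM with D + Q and 328, 253, 377, 462 and 323 CPM with vehicle. Vehicle mouse 4 alone reached the D + Q range, and the difference was 0.47 (exact permutation p = 0.0238). Stromelysin Mmp3 (0.45), Mmp11 (0.43) and the membrane-bound Mmp14 (0.40) were the others. Of the 5 metalloproteinase inhibitors 4 were higher. Timp2 was at 482, 441, 515, 451 and 470.0 CPM with D + Q and 339.6, 238, 401, 418 and 347 CPM with vehicle. All D + Q mice lay above all vehicle mice, with a difference of 0.44. Timp3 was at 102 ± 6.05 against 85.9 ± 10.3 CPM, and within sham mice it differed by -0.084. Among ADAMTS and ADAMTS-like genes 19 of 23 were higher with a median of 0.22. Adamts15 (0.43), Adamts2 (0.42) and Adamtsl1 (0.40) had an unadjusted p under 0.05, and Adamts1 was at 65.5 ± 19.7 against 48.7 ± 14.4 CPM with a wide spread. Adamtsl5 went the other way with no overlap, at 52.6, 61.9, 55.6, 55.0 and 59.4 CPM with D + Q and 66.9, 65.6, 63.8, 62.9 and 75.1 CPM with vehicle. The count of 5 higher members was 2 without D + Q mouse 1, 10 without vehicle mouse 4 and 3 without vehicle mouse 5. The ADAMTS median was 0.084 without vehicle mouse 2, 0.43 without vehicle mouse 4 and 0.032 without vehicle mice 2 and 5.

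All 6 tested genes of the plasminogen system were higher, 0 of them with an unadjusted p under 0.05 in edgeR, and the median of 0.36 ran from 0.19 without vehicle mouse 2 to 0.55 without vehicle mouse 4, and was 0.10 without vehicle mice 2 and 5. The count of members under the threshold was 3 without vehicle mouse 4. Urokinase (Plau) was at 45.1, 43.2, 37.7, 37.1 and 33.5 CPM with D + Q and 20.1, 24.2, 30.3, 47.6 and 30.6 CPM with vehicle. Vehicle mice 1 and 2 were the low ones and vehicle mouse 4 was above every D + Q mouse. The protease inhibitor Serpine2, with the most counts, differed by 0.042, or -0.036 to 0.092 with single mice left out. Of lysosomal proteases and their partners 10 of 16 were higher, with a median of 0.054 (0.11 with total counts, 0.082 by limma-voom, 0.12 without vehicle mouse 4, 0.011 without vehicle mouse 5 and -0.014 without vehicle mice 2 and 5). Cathepsin K was the member under the threshold, 1 of 6 without vehicle mouse 4, while cathepsin D (Ctsd), with the most counts, was at 526 ± 24.5 against 559 ± 59.9 CPM.

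Integrins are the transmembrane receptors for matrix, and their list, which also holds the secreted Itgbl1, was split. Of 21 genes tested 15 were higher and 6 lower, for a median of 0.090. The integrin median ran from 0.030 without vehicle mouse 1 to 0.14 without D + Q mouse 4, and was 0.14 with total counts and 0.030 without vehicle mice 2 and 5. The collagen receptor chains Itga11 and Itga2 were on the higher side, Itga2 at 2.42, 2.64, 3.04, 2.72 and 2.22 CPM with D + Q and 1.81, 1.32, 1.85, 1.34 and 2.06 CPM with vehicle. Its groups did not overlap, although the level was low. Itga7, the laminin receptor chain of muscle fibers, was lower, at 128, 148, 125, 142 and 151 CPM with D + Q and 162, 207, 156, 140.0 and 278 CPM with vehicle. Vehicle mouse 5 had the highest Itga7, and only vehicle mouse 4 lay inside the D + Q range. The difference of -0.44 became -0.26 without vehicle mouse 5 and -0.14 without vehicle mice 2 and 5. Itgb1, the beta chain that pairs with all of these, was at 420.1 ± 28.5 against 449.6 ± 54.4 CPM.

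Growth factor genes were also higher in part. Of the IGF ligands, receptors and binding proteins 12 of 15 were higher (median 0.23, or 0.14 without D + Q mouse 3, 0.11 without vehicle mouse 2 and 0.069 without vehicle mice 2 and 5). Igfbp3 was at 36.2, 27.2, 37.9, 34.9 and 32.7 CPM with D + Q and 34.4, 24.0, 23.2, 26.6 and 21.1 CPM with vehicle, with vehicle mouse 1 alone inside the D + Q range. Igfbp5, which has the most counts, was at 622 ± 58.6 against 484 ± 108 CPM, Igf1 at 134 ± 25.7 against 100.5 ± 23.3 CPM and the receptor adaptor Irs1 at 67.8 ± 7.76 against 57.4 ± 8.79 CPM. The count of 4 members with an unadjusted p under 0.05 was 2 without vehicle mouse 5 and 1 without vehicle mice 2 and 5. In the myostatin, activin and follistatin axis, which sets muscle mass through activin receptors, 15 of 17 genes were higher with a median of 0.14 (0.078 without vehicle mice 2 and 5). Only 1 member, Inhba, was higher at an unadjusted p under 0.05 (1 to 4 with single mice left out), and 0 members had groups without overlap. The list mixes ligands, receptors and inhibitors, so a higher median gives no direction for the pathway. The mean log2 CPM of this list was 4.09, 4.10, 3.99, 4.10 and 4.08 in D + Q mice and 3.94, 3.92, 3.92, 3.91 and 3.85 in vehicle mice. D + Q mouse 3 was the lowest of its group and still above every vehicle mouse. Inhba, the activin A chain, was at 6.46, 6.24, 4.91, 4.20 and 6.05 CPM with D + Q and 3.81, 2.09, 3.48, 3.08 and 4.96 CPM with vehicle. Its groups overlapped, with a difference of 0.67 (exact permutation p = 0.0238), and the glycoprotein Fstl1, with the most counts, was at 907 ± 77.5 against 705 ± 190.5 CPM. Among TGF-beta ligands and receptors 9 of 14 were higher (median 0.13, or 0.078 without vehicle mouse 2 and 0.060 without vehicle mice 2 and 5). The 1 member at an unadjusted p under 0.05 became 3 without vehicle mouse 3, 5 without vehicle mouse 4 and 0 without vehicle mice 2 and 5. Bmp2 differed by 0.78 and Tgfbr2 by 0.21 (0.13 without vehicle mouse 2).

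Vascular growth factors differed in both directions. Vegfb, a ligand tied to fatty acid uptake by endothelium, was at 64.8, 59.0, 60.8, 60.7 and 60.5 CPM with D + Q and 86.4, 77.6, 69.2, 65.5 and 75.5 CPM with vehicle. All D + Q mice lay below all vehicle mice, for a difference of -0.29 (exact permutation p = 0.00794). Angpt1, the ligand that steadies vessels through Tek, was at 18.3, 18.6, 19.4, 18.9 and 20.9 CPM with D + Q and 15.2, 17.2, 15.5, 17.6 and 16.3 CPM with vehicle. Here all D + Q mice lay above, with a difference of 0.23. The receptor Nrp2 (0.28) and the secreted Angptl1 (0.33) were higher and Vegfa, with the most counts, was at 232 ± 37.3 against 260.5 ± 11.4 CPM. Of 18 genes in the VEGF and angiopoietin list 12 were higher, 4 with an unadjusted p under 0.05, and 4 without vehicle mice 2 and 5.

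Respiratory chain genes were lower without exception. Of the 80 nuclear-encoded subunits of complexes I to V all 80 were lower with D + Q. An unadjusted p under 0.05 was seen in 41, against 4.61% of all genes, and in 15 the groups did not overlap, against 0.788%. These lists were chosen with earlier results of these data known. Their genes were measured in the same mice, so 41 is not a count of independent tests. The differences were small, with a median of -0.16 and a range from -0.43 to -0.024. Scaling by total counts moved the medians of complexes I to V from -0.17, -0.14, -0.16, -0.16 and -0.17 to -0.11, -0.085, -0.10, -0.10 and -0.11, and the members under the threshold from 22, 5 and 6 to 11, 2 and 1 for complexes I, III and IV. Complex I, the NADH dehydrogenase, had 22 of 36 members under the threshold and 9 without overlap. Ndufa5 was at 120.3, 127, 120.1, 132 and 118 CPM with D + Q and 138, 159.5, 133, 151 and 159 CPM with vehicle. D + Q mice sat in a narrow band below the vehicle mice, for a difference of -0.26 (exact permutation p = 0.00794). Ndufa6 (-0.23), Ndufb6 (-0.22) and Ndufb7 (-0.21) did not overlap either. Complex II genes were 4 of 4 lower (Sdhd -0.15, Sdha -0.11). In complex III, Uqcr10 (-0.21) and cytochrome c1 (Cyc1, -0.22) had groups apart, and Uqcrq (-0.20), Uqcr11 (-0.19) and Uqcrc1 (-0.13) did not. Complex IV was 14 of 14 lower, with Cox6b1 at -0.21, Cox7b at -0.20, Ndufa4 at -0.16, Cox5b at -0.18 and the muscle isoform Cox6a2 at -0.12 (-0.062 without vehicle mouse 1).

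ATP synthase, complex V, showed its widest differences in the genes for subunit c, the ring that protons turn. Atp5g2 was at 38.6, 26.6, 32.5, 37.5 and 38.1 CPM with D + Q and 49.8, 41.2, 39.4, 53.1 and 49.3 CPM with vehicle and differed by -0.43. Atp5g1 was at 335, 340.3, 299, 349.7 and 309 CPM with D + Q and 393, 427, 366, 362 and 443 CPM with vehicle and differed by -0.29. Both had groups that did not overlap, and the third gene, Atp5g3, differed by -0.20 with overlap. The coupling subunit Atp5j (-0.18) and the catalytic Atp5b (-0.18) were lower too. The counts for the complexes moved with the mice left out, as did the count of lower genes over all genes. That count went from 702 to 474 without D + Q mouse 1, 475 without vehicle mouse 2 or 5 and 272 without vehicle mice 2 and 5. For complex I the 22 members became 12 without D + Q mouse 1 or vehicle mouse 5, 14 without D + Q mouse 3, 9 without D + Q mouse 5 and 11 without vehicle mouse 2, and 2 without vehicle mice 2 and 5, where the median was -0.11. The mean log2 CPM of complex I was 7.14, 7.27, 7.02, 7.09 and 7.19 in vehicle mice 1 to 5 and 6.94, 7.02, 6.96, 7.04 and 6.92 in D + Q mice 1 to 5. Vehicle mouse 3 lay within the D + Q range and mouse 2 was the highest. Complex III counts were 3 without D + Q mouse 1, 3 or 5 or vehicle mouse 1, 2 or 5 and 0 without vehicle mice 2 and 5, and those of complex IV 2 without D + Q mouse 1, 3 or 5 or vehicle mouse 2, 3 without D + Q mouse 2 or vehicle mouse 5 and 1 without vehicle mice 2 and 5. Complex V counts were 12 without vehicle mouse 3 and 2 without vehicle mice 2 and 5. Stromal marker lists were on the higher side, with medians of 0.33 for fibroblasts and 0.44 for tenocytes. The fibroblast markers had mean log2 CPM of 6.11, 5.77, 6.42, 6.86 and 6.10 in vehicle mice 1 to 5 and 6.79, 6.57, 6.74, 6.54 and 6.44 in D + Q mice 1 to 5, lowest in vehicle mouse 2, and the part of cell share in the mitochondrial results was not tested.

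Other mitochondrial genes were lower as well. All 13 subunits encoded by mitochondrial DNA were lower (median -0.14, or -0.077 with total counts and -0.21 without vehicle mouse 4), with mt-Nd3 (-0.29) the member at an unadjusted p under 0.05 and mt-Co1, with the most counts of them, at 31443 ± 1910.4 against 34461 ± 3554 CPM. That 1 member became 2 without vehicle mouse 3, 9 without vehicle mouse 4 and 0 without vehicle mice 2 and 5. All 18 TCA cycle enzymes and their pyruvate entry complex were lower (median -0.13, or -0.073 with total counts and -0.063 without vehicle mice 2 and 5), led by Pdhb (-0.23), Dlst (-0.23) and Dlat (-0.27, or -0.16 without vehicle mouse 5). Without vehicle mice 2 and 5 these 3 were -0.15, -0.11 and -0.097. The 3 members under the threshold were 10 without vehicle mouse 4 and 1 without vehicle mouse 5, and 0 in edgeR without vehicle mice 2 and 5, where 272 genes in all were lower. All 19 fatty acid oxidation enzymes were lower (median -0.14, or -0.077 with total counts, -0.079 without vehicle mouse 2 and -0.082 without vehicle mice 2 and 5). Hadh was at 130.0, 134, 125, 129.7 and 125 CPM with D + Q and 157, 161, 136, 137 and 135 CPM with vehicle. Its groups did not overlap, although the difference was only -0.17, and Etfa (-0.21) and Hadha (-0.14, or -0.066 without vehicle mouse 2) were near it. Mitochondrial ribosomal proteins were lower in 71 of 78, 25 with an unadjusted p under 0.05 (median -0.13, or -0.077 with total counts and -0.077 without vehicle mice 2 and 5). Mrpl12 was at 72.9, 82.9, 76.1, 78.7 and 74.4 CPM with D + Q and 91.1, 105, 87.2, 83.2 and 98.1 CPM with vehicle, and Mrpl53 at 39.1, 39.1, 40.4, 40.8 and 39.0 CPM with D + Q and 44.2, 46.6, 43.2, 47.1 and 45.8 CPM with vehicle. In both the groups stood apart, and Mrpl45 (-0.25), Mrps24 (-0.25) and Mrpl42 (-0.17) overlapped. That count was 14 without D + Q mouse 3 and 16 without vehicle mouse 5. With total counts it was 10, and without vehicle mice 2 and 5 it was 8.

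Regulators of mitochondrial biogenesis were mostly lower. Of 14, 11 were lower with a median of -0.059 (-0.0012 with total counts, -0.035 without D + Q mouse 5, -0.034 without vehicle mouse 2, -0.12 without vehicle mouse 4 and -0.020 without vehicle mice 2 and 5), and the nuclear receptor Esrra was at 99.7, 113, 102.7, 105 and 96.6 CPM with D + Q and 133, 126, 106, 109 and 127 CPM with vehicle. D + Q mice were low but overlapped the vehicle range. Glycolytic and glycogen enzymes had a median of -0.082 (-0.026 with total counts, -0.054 without vehicle mouse 5 and -0.036 without vehicle mice 2 and 5), with 15 of 21 lower. The glycogen branching enzyme Gbe1 was at 84.4 ± 8.38 against 110.4 ± 26.8 CPM and aldolase (Aldoa), with the most counts, at 10056 ± 855 against 10998 ± 1223 CPM. Cytosolic ribosomal proteins were lower in 75 of 79 by a median of -0.079 (-0.024 with total counts and -0.041 without vehicle mouse 4). Rpl27 (-0.20), Rpl31 (-0.21) and Rpl37 (-0.19) were among the members with an unadjusted p under 0.05 there, and Rplp0 differed by -0.13 with no overlap. The count of 4 was 1 without D + Q mouse 1 or 5 or vehicle mouse 4, 0 without D + Q mouse 2 or vehicle mouse 5 or vehicle mice 2 and 5, 8 without D + Q mouse 3, 2 without D + Q mouse 4 or vehicle mouse 2 and 13 without vehicle mouse 3, and 0 with total counts in edgeR, where 351 genes in all were lower. All 14 core subunits of the proteasome were lower (median -0.12, or -0.067 with total counts and -0.070 without vehicle mice 2 and 5), with Psma6 at -0.20, Psma2 at -0.13 and Psmb7, with the most counts, at -0.14.

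**Figure D3:**
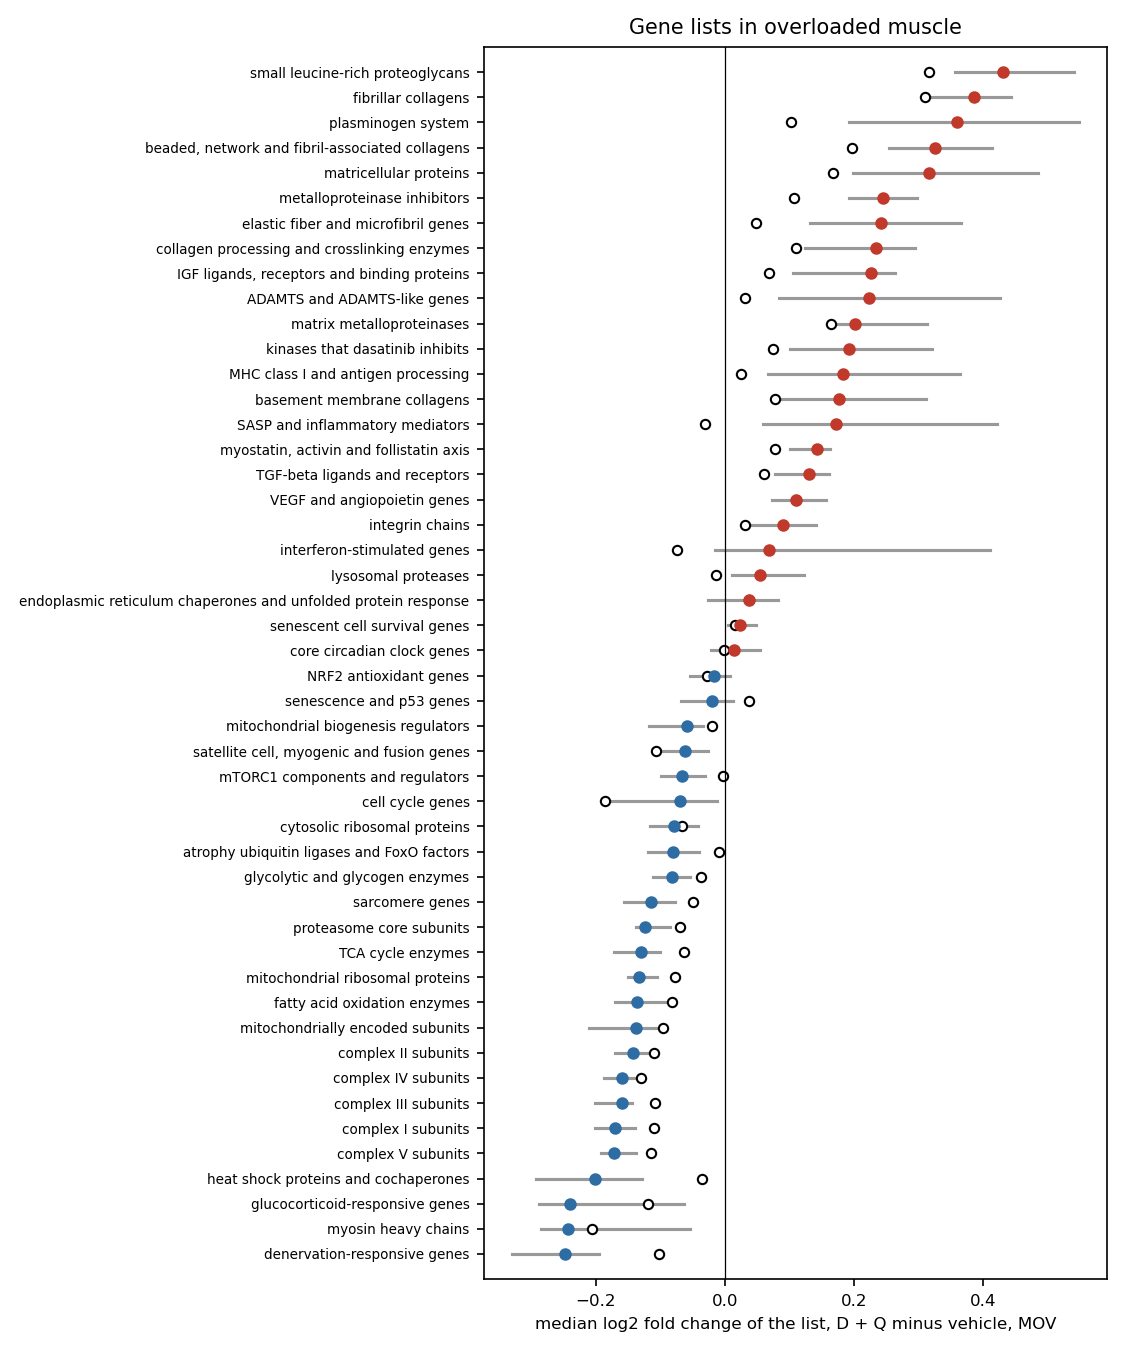
Median log2 difference of D + Q minus vehicle MOV mice for 48 gene lists (coloured points), with the range when each mouse is left out in turn (grey lines) and the value without vehicle mice 2 and 5 (open circles). Matrix lists lie on the higher side, up to 0.43 for small proteoglycans, and complexes I to V lie between -0.17 and -0.14.

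Heat shock proteins and their cochaperones keep other proteins, among them those of the sarcomere, from clumping. Of 24 heat shock proteins and cochaperones 21 were lower and 8 had an unadjusted p under 0.05 (median -0.20, or -0.13 without vehicle mouse 5 and -0.036 without vehicle mice 2 and 5). Cryab was at 606, 694, 575, 686 and 848 CPM with D + Q and 932, 1546, 794, 806 and 2894 CPM with vehicle. Vehicle mice 2 and 5 were far above the other vehicle mice, whose values lay near the highest D + Q mouse, so the difference of -1.03 became -0.58 without vehicle mouse 5 and -0.31 without this pair. Hspb7 was at 1576, 1973, 1236, 1744 and 2041 CPM with D + Q and 2056, 3514, 2254, 1641 and 4201 CPM with vehicle. The same vehicle mice were highest, and without them the difference of -0.67 became -0.21. Hspb6 was at 830.0, 972, 742, 948 and 1020.2 CPM with D + Q and 1127, 1358, 1135, 896 and 1531 CPM with vehicle, with a difference of -0.42 and -0.22 without the pair. Hspb2, the neighbor of Cryab on the chromosome, was at 58.4 ± 4.12 against 76.8 ± 20.4 CPM with no overlap between groups, and Hspb3 at 22.5 ± 1.89 against 27.5 ± 4.52 CPM. The count of 8 was 5 without D + Q mouse 1 or vehicle mouse 5 and 4 without vehicle mouse 2, and 1 without vehicle mice 2 and 5. Hspa1a and Hspa1b are near-identical copies between which reads can be split, and neither had an unadjusted p under 0.05.

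The promoters of heat shock genes are shown because their known regulator binds short inverted repeats, and its part in the values above was not tested. RefSeq promoters of build GRCm38.p6, from 250 bases before to 50 after a gene's start, were searched for GAANNTTC, which reads the same on both strands. Of 32851 promoters 2582 (7.86%) held it, as did those of 800 of 11262 tested genes (7.1%). In the heat shock list 18 of 24 genes matched a promoter and 11 of them held the letters (61.1%). Of the members lower at an unadjusted p under 0.05, 6 matched and 3 held the letters, in capitals below. Cryab and Hspb2 matched no promoter and were not searched. The match begins 120 bases before the start in 1 of the 2 promoters of Hspb6 (chr7:30553051-30553350, plus strand), 224 bases before it in Hspb3 (chr13:113663627-113663926, minus strand) and 42 bases after it in Bag3 (chr7:128523333-128523632, plus strand). A match describes these letters only, and binding was not measured.
Hspb6: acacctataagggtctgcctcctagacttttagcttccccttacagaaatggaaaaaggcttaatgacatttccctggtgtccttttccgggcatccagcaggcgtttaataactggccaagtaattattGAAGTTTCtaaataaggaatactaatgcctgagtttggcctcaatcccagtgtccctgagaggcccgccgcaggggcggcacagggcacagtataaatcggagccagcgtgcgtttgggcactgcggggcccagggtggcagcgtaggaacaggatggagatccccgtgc
Hspb3: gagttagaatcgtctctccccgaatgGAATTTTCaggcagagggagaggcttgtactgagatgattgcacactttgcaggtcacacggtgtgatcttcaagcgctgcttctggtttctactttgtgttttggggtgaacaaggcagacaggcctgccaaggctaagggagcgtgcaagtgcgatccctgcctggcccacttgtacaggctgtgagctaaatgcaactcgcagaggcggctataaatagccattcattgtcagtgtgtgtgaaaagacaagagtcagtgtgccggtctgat
Bag3: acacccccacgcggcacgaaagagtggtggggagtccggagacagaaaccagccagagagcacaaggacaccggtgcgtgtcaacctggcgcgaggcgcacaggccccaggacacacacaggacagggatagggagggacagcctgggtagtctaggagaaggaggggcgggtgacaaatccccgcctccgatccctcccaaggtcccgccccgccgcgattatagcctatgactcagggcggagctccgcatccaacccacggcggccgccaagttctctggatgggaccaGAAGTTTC

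Chaperones of the endoplasmic reticulum fold secreted and membrane proteins. Of 25 genes 14 were higher and 11 lower, with a median of 0.038, which ran from -0.027 without D + Q mouse 5 to 0.083 without vehicle mouse 5, and was 0.089 with total counts. Dnajc3, a cochaperone that restrains the kinase PERK, was at 71.3, 68.4, 66.7, 67.6 and 80.8 CPM with D + Q and 54.4, 53.5, 67.7, 65.9 and 58.5 CPM with vehicle. The difference of 0.24 had slightly overlapping groups, and Eif2ak3, the gene for PERK itself, differed by 0.31. Dnajb9 (-0.27, or -0.15 without vehicle mouse 5) and the stress pseudokinase Trib3 (-0.56) were lower, and the main chaperone Hspa5 was at 254 ± 40.8 against 235 ± 42.9 CPM with D + Q mouse 5 high.

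Several sarcomere genes were lower. Ankrd2, a stretch-responsive titin partner, was at 215, 338, 176, 332 and 393 CPM with D + Q and 349, 584, 494, 326 and 802 CPM with vehicle. Vehicle mice 2 and 5 were the highest, and the difference was -0.81 with all mice and -0.42 without them. Csrp3, the muscle LIM protein of the Z-disc, was at 464, 675, 382, 514 and 695 CPM with D + Q and 511, 973, 848, 619 and 1600.2 CPM with vehicle. Again vehicle mice 2 and 5 were highest, and the difference of -0.74 became -0.43 without vehicle mouse 5 and -0.27 without both. The Z-disc crosslinker Actn2 was at 1980.1, 2251, 1741, 2044 and 2272 CPM with D + Q and 2779, 3288, 2369, 1994 and 3199 CPM with vehicle, a difference of -0.41, or -0.21 without them. The slow-fiber protein Myoz2 (-0.33), desmin (Des, -0.29) and Acta1 (-0.24) were lower by less. Of 35 sarcomere genes 29 were lower (median -0.11, or -0.059 with total counts and -0.049 without vehicle mice 2 and 5), and the 6 with an unadjusted p under 0.05 became 2 without D + Q mouse 1 or 3, 3 without D + Q mouse 4 or vehicle mouse 5, 1 without vehicle mouse 2 and 12 without vehicle mouse 4, and 0 in edgeR without vehicle mice 2 and 5, against 272 lower genes in all.

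Myosin heavy chains, which define fiber types, were lower in 8 of 9. Myh2, the chain of fast oxidative 2A fibers, was at 6553, 7755, 5144, 6154 and 7612 CPM with D + Q and 9113, 9871, 8556, 6048 and 9185 CPM with vehicle. D + Q mice were lower on average with overlapping ranges, for a difference of -0.36 (exact permutation p = 0.0635). Myh4, the chain of fast glycolytic 2B fibers and the exception, was at 24476 ± 3763 against 22728 ± 2169 CPM and differed by 0.11 (0.046 without D + Q mouse 4, 0.19 without D + Q mouse 5 and 0.062 without vehicle mouse 2). In the list of satellite cell, myogenic and fusion genes 8 of 15 were lower. Cdh15, the cadherin of satellite cells and myoblasts, was at 21.6, 23.5, 17.9, 23.5 and 25.6 CPM with D + Q and 29.6, 28.3, 24.9, 25.4 and 29.8 CPM with vehicle. Vehicle mice 3 and 4 lay inside the D + Q range, and the difference was -0.30 (exact permutation p = 0.0238), while the fusion gene Mymk was at 8.48 ± 2.12 against 11.1 ± 1.96 CPM. Genes that respond to loss of nerve contact were lower in 10 of 13 (median -0.25, or -0.10 without vehicle mice 2 and 5), with Gadd45a at -0.53, the receptor kinase Musk at -0.38 and the acetylcholine receptor chain Chrnb1 at -0.25. The 3 members under the threshold became 0 without D + Q mouse 1 or vehicle mouse 2, 1 without D + Q mouse 3 or 4 or vehicle mouse 1 or 5 and 5 without D + Q mouse 5, and 1 without vehicle mice 2 and 5. Of the atrophy ubiquitin ligases and FoxO factors 0 of 14 had an unadjusted p under 0.05 in edgeR (median -0.080, or -0.027 with total counts, -0.049 without D + Q mouse 5, -0.039 without vehicle mouse 2 and -0.0085 without vehicle mice 2 and 5), and Nedd4, with the most counts, differed by -0.011, a direction that scaling by total counts turned to 0.045.

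Glucocorticoid-responsive genes were lower in 14 of 20, 6 with an unadjusted p under 0.05, but the median of -0.24 was -0.13 by limma-voom, -0.063 without vehicle mouse 2 and -0.12 without vehicle mice 2 and 5. The metallothionein Mt2 was at 24.1, 31.1, 26.6, 27.7 and 38.1 CPM with D + Q and 37.5, 48.0, 33.5, 55.4 and 37.0 CPM with vehicle. Vehicle mice 2 and 4 were highest and D + Q mouse 5 lay above the other vehicle mice, and the difference was -0.52 for Mt2 and -0.58 for its close relative Mt1. Ddit4, an inhibitor of mTORC1, was at 9.87, 9.27, 13.7, 13.8 and 12.2 CPM with D + Q and 19.0, 18.6, 13.5, 14.4 and 14.3 CPM with vehicle. Vehicle mice 1 and 2 were highest, only vehicle mouse 3 lay below D + Q mice 3 and 4, and the difference was -0.44 (exact permutation p = 0.0238). The immunophilin Fkbp5 differed by -0.40 (-0.26 without vehicle mouse 2). The kinase gene Pdk4, with the most counts, was at 506, 400.0, 303, 389 and 349 CPM with D + Q and 424, 883, 281, 414 and 421 CPM with vehicle. Vehicle mouse 2 was highest, and the difference of -0.31 became 0.015 without vehicle mouse 2. The list's 6 members under the threshold became 3 without D + Q mouse 5 or vehicle mouse 1, and 5 without vehicle mice 2 and 5. Among mTORC1 components and regulators 21 of 27 were lower (median -0.067, or -0.014 with total counts, -0.044 without D + Q mouse 3, -0.040 without D + Q mouse 5, -0.030 without vehicle mouse 2 and -0.0029 without vehicle mice 2 and 5). Besides Ddit4, Sesn1 (-0.24) and Depdc5 (-0.36), which also restrain mTORC1 in response to stress and amino acids, had an unadjusted p under 0.05, and the translation repressor Eif4ebp2 was at 225 ± 19.7 against 218 ± 25.6 CPM.

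Clock genes had a median of 0.013, close to that of all genes. The clock median ran from -0.021 without D + Q mouse 1 to 0.055 without D + Q mouse 5, and was 0.068 with total counts and -0.0020 without vehicle mice 2 and 5. Nr1d1 was at 93.3, 92.8, 73.6, 112 and 83.5 CPM with D + Q and 131, 124, 113, 107 and 149 CPM with vehicle. Npas2, a partner of the activating clock factors, was at 13.8, 8.92, 11.8, 9.43 and 11.9 CPM with D + Q and 5.44, 5.74, 7.82, 9.88 and 6.43 CPM with vehicle. These went in opposite directions, Nr1d1 with a difference of -0.46 and Npas2 with one of 0.66, each with overlapping groups. Tef, an output factor of the clock with the most counts, was at 178 ± 12.2 against 198 ± 32.8 CPM.

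Genes tied to senescence itself differed little between the groups. Of 22 senescence and p53 genes 8 were higher and 14 lower, with a median of -0.020. It ran from -0.068 without D + Q mouse 5 to 0.012 without vehicle mouse 2, and was 0.041 with total counts, 0.0050 by limma-voom and 0.038 without vehicle mice 2 and 5. The cell cycle inhibitor Cdkn1a was at 61.2, 55.9, 64.9, 55.3 and 77.0 CPM with D + Q and 69.2, 62.5, 59.1, 77.1 and 57.5 CPM with vehicle. The groups overlapped almost fully, and the difference of -0.051 (exact permutation p = 0.635) was 0.00019 when scaled by total counts. Cdkn1c, a related inhibitor, was at 67.2 ± 8.10 against 56.3 ± 9.19 CPM, while the p53 target Ccng1, with the most counts, was at 704 ± 76.5 against 707 ± 62.0 CPM and differed by -0.0062, or by 0.049 when scaled by total counts. Of 27 tested SASP and inflammatory mediators 20 were higher with a median of 0.17. That median was 0.26 by limma-voom, 0.086 without D + Q mouse 5, 0.059 without vehicle mouse 2, 0.42 without vehicle mouse 4, 0.11 without vehicle mouse 5 and -0.030 without vehicle mice 2 and 5, and the 0 members higher at an unadjusted p under 0.05 in edgeR were 1 without D + Q mouse 2 or vehicle mouse 3 and 8 without vehicle mouse 4. The mean log2 CPM of that list was 2.95, 2.32, 3.06, 3.73 and 3.02 in vehicle mice and 3.15, 3.11, 3.27, 3.08 and 3.45 in D + Q mice. Vehicle mice 2 and 4 were its lowest and highest values, with all D + Q mice between them. The chemokine Ccl5 was on the lower side, at 1.30, 0.176, 1.82, 0.256 and 1.01 CPM with D + Q and 2.51, 1.55, 1.25, 4.97 and 1.52 CPM with vehicle. Vehicle mouse 4 was highest and the ranges overlapped. Il6, Il1a, Tnf and 6 other members were below the count minimum, and 3 were not in the table.

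Genes that senescent cells use to survive, among them the targets senolytics are meant to reach, were also close to background. Of 24 tested 13 were higher, and 0 had an unadjusted p under 0.05 in either direction in edgeR. Without vehicle mouse 4, 3 were higher at that threshold, and 1 was lower without D + Q mouse 5. The median was 0.023, which ran from 0.0050 without vehicle mouse 2 to 0.048 without D + Q mouse 3. It was 0.077 with total counts, 0.0014 with the higher count minimum and 0.0090 by limma-voom. Mcl1, with the most counts, was at 232 ± 14.4 against 239 ± 17.7 CPM and differed by -0.044, by -0.078 to -0.0095 with single mice left out and by 0.012 when scaled by total counts. Of the kinases that dasatinib inhibits 21 of 24 were higher, with a median of 0.19 in MOV and 0.32 in sham mice. The MOV median was 0.10 without vehicle mouse 2, 0.32 without vehicle mouse 4 and 0.074 without vehicle mice 2 and 5. The Src-family kinase Yes1 was at 19.6, 16.6, 16.5, 17.3 and 16.5 CPM with D + Q and 12.7, 14.4, 14.9, 15.6 and 13.5 CPM with vehicle. All D + Q mice lay above all vehicle mice, for a difference of 0.28 (exact permutation p = 0.00794). Kit (0.64) and Abl1 (0.16) were the other members under the threshold, Csf1r, with the most counts, was at 70.2 ± 5.00 against 58.8 ± 21.9 CPM, and the count of 3 was 11 without vehicle mouse 4.

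Interferon-stimulated genes had 0 of 26 members with an unadjusted p under 0.05 in edgeR and a median of 0.068, and within sham mice their median was -0.31. The MOV median ran from -0.015 without vehicle mouse 3 to 0.41 without vehicle mouse 4, and was 0.18 by limma-voom and -0.073 without vehicle mice 2 and 5. Values per mouse were widely spread in both MOV groups. The mean log2 CPM was 2.68, 3.54, 3.30, 2.50 and 2.94 with D + Q and 3.03, 2.61, 2.33, 3.60 and 2.54 with vehicle. D + Q mice 2 and 3 and vehicle mice 1 and 4 were the high ones, and Ifi27, with the most counts, was at 42.6 ± 2.43 against 41.7 ± 3.38 CPM. All 15 genes of MHC class I and antigen processing were higher (median 0.18 in MOV and -0.25 in sham mice), 0 with an unadjusted p under 0.05 in edgeR, and H2-D1 was at 204 ± 23.5 against 181 ± 53.8 CPM. The MHC class I median was 0.067 without D + Q mouse 2, 0.096 without vehicle mouse 2, 0.36 without vehicle mouse 4 and 0.025 without vehicle mice 2 and 5, and the count was 3 without D + Q mouse 4 and 7 without vehicle mouse 4. Among NRF2 antioxidant genes 10 of 18 were lower, with a median of -0.017 that ran from -0.054 without D + Q mouse 2 to 0.0083 without vehicle mouse 4, and was 0.033 with total counts, -0.0089 by limma-voom and -0.028 without vehicle mice 2 and 5. The superoxide dismutase Sod1 was at 102.7 ± 7.97 against 118 ± 8.56 CPM and its mitochondrial relative Sod2 at 203 ± 10.4 against 220.3 ± 19.7 CPM. Cell cycle genes were lower in 18 of 30 (median -0.069), with the replication helicase genes Mcm6 (-0.35) and Mcm7 (-0.26, or -0.17 without vehicle mouse 5) at an unadjusted p under 0.05 and Cdk4 at 47.9 ± 3.99 against 47.3 ± 6.46 CPM. The cell cycle median ran from -0.18 without vehicle mouse 2 to -0.013 without vehicle mouse 4, and was -0.018 with total counts, -0.029 with the higher count minimum, -0.13 by limma-voom and -0.19 without vehicle mice 2 and 5, and the 2 lower members became 1 without D + Q mouse 1, 2 or 4 or vehicle mouse 1 or 5 and 6 without vehicle mouse 2.

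Markers of matrix-producing cells were higher beside the matrix genes. Of the fibro-adipogenic progenitor and fibroblast markers 11 of 12 were higher (median 0.33, or 0.21 without vehicle mouse 2, 0.50 without vehicle mouse 4 and 0.13 without vehicle mice 2 and 5), with none at 0 in the table. Their summed level was 5261, 4336, 5745, 4837 and 5284 CPM in D + Q mice 1 to 5 and 3887, 2698, 4266, 5069.8 and 4035 CPM in vehicle mice 1 to 5, most of it from Col1a1. Vehicle mouse 2 had the lowest sum and vehicle mouse 4 one within the D + Q range, as for Col3a1. The 4 members with an unadjusted p under 0.05 became 2 without D + Q mouse 1 or 2 or vehicle mouse 1 or 5, 1 without D + Q mouse 3 or vehicle mouse 2 and 11 without vehicle mouse 4, and 1 without vehicle mice 2 and 5. All 10 tenocyte markers were higher (median 0.44), with sums of 1187, 1068, 1258, 1209 and 1538 CPM with D + Q and 866, 779, 981, 1433 and 1209 CPM with vehicle, most of it from Thbs4 (0.18, or 0.11 without vehicle mouse 1, 0.098 without vehicle mouse 2 and 0.27 without vehicle mouse 4). Vehicle mouse 2 was lowest here too. Several of these markers are also matrix genes of the lists above, and the part of cell number in the matrix results was not tested.

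Macrophage markers were higher in 11 of 12 (median 0.23), 1 with an unadjusted p under 0.05. The median was 0.082 without vehicle mouse 2, 0.44 without vehicle mouse 4 and 0.0044 without vehicle mice 2 and 5, and the count was 0 without D + Q mouse 3 or vehicle mouse 1 or 5 or vehicle mice 2 and 5, 2 without vehicle mouse 2 and 8 without vehicle mouse 4. Their summed level was 836, 787, 942, 814 and 844 CPM in D + Q mice 1 to 5 and 683, 366, 776, 1069 and 669 CPM in vehicle mice 1 to 5, the largest part from lysozyme (Lyz2). Vehicle mouse 2 was lowest and vehicle mouse 4 highest of all 10, with the D + Q mice in a narrow band between. Of 10 antigen-presenting cell markers 6 were higher and 4 lower. Their median was 0.35 (0.19 without vehicle mouse 2, 0.66 without vehicle mouse 4 and 0.043 without vehicle mice 2 and 5). Cd74, the most counted of them, was at 280.2 ± 22.8 against 209 ± 104 CPM. Mast cell markers were higher in 5 of 5, 3 with an unadjusted p under 0.05. Their median, 0.76 (0.38 without vehicle mice 2 and 5), was the largest among marker lists on the higher side. Their sums were 16.5, 17.4, 14.0, 13.5 and 13.4 CPM with D + Q and 7.12, 4.07, 11.8, 16.3 and 4.96 CPM with vehicle, the largest part from Mcpt4. Vehicle mice 1, 2 and 5 were the low ones, vehicle mice 3 and 4 lay near or within the D + Q range, and all levels are low. The receptor Kit, both a mast cell marker and a dasatinib target, was at 3.95, 3.47, 3.04, 1.90 and 2.52 CPM with D + Q and 1.35, 1.85, 2.12, 2.33 and 1.91 CPM with vehicle. Only D + Q mouse 4 lay within the vehicle range. The 3 members under the threshold were 1 without vehicle mouse 1 or 5 and 5 without vehicle mouse 4, and 1 without vehicle mice 2 and 5.

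Markers of lymphocytes, neutrophils and blood differed in both directions. Of 8 tested T and NK cell markers 4 were higher (median -0.24), all 5 tested B and plasma cell markers were lower (median -0.64) and of 3 tested neutrophil markers 2 were lower (median -1.03). Without some mice or with another count minimum the T and NK cell median was 0.15 with the higher count minimum, -0.079 without D + Q mouse 2, -0.15 without vehicle mouse 1, -0.076 without vehicle mouse 4 and -0.41 without vehicle mice 2 and 5, the B cell median -0.096 without vehicle mouse 4 and the neutrophil median 0.10 with the higher count minimum and -0.49 without vehicle mouse 2. The most counted genes of these lists were Thy1 (42.7 ± 3.75 against 38.5 ± 14.8 CPM), Ighm (56.6 ± 9.29 against 58.1 ± 32.7 CPM) and Csf3r (3.30 ± 0.898 against 3.07 ± 0.591 CPM). All 5 erythroid markers were lower with a median of -0.24 (0.25 by limma-voom, -0.43 without vehicle mouse 1, 0.36 without vehicle mouse 2, -0.40 without vehicle mouse 5 and 0.30 without vehicle mice 2 and 5). Hbb-bs, whose reads can be shared with other globin copies, was at 213, 204, 197, 154 and 146 CPM with D + Q and 112, 544, 156, 203 and 135 CPM with vehicle. Vehicle mouse 2 was highest, and the difference of -0.33 became -0.50 without vehicle mouse 1 and 0.27 without vehicle mouse 2 and 0.14 by limma-voom. The endothelial list, which includes Tcf15, had 9 of 12 markers lower, a median of -0.083 and Pecam1 at 77.2 ± 8.84 against 81.3 ± 8.73 CPM. That median ran from -0.12 without vehicle mouse 3 to -0.022 without D + Q mouse 4, and was -0.032 with total counts. Medians were -0.046 for muscle fiber markers (0.014 when scaled by total counts), 0.0037 for pericyte and smooth muscle markers, -0.077 for satellite cell markers, 0.080 for Schwann cell markers and -0.027 for adipocyte markers (0.011 when scaled by total counts). Signs of these small medians turned when mice were left out. The fiber median ran from -0.11 without vehicle mouse 4 to 0.014 without vehicle mouse 2 and the pericyte median from -0.057 without D + Q mouse 5 to 0.046 without D + Q mouse 3. For satellite cells it ran from -0.19 without D + Q mouse 3 to 0.052 without D + Q mouse 4, for Schwann cells from -0.16 without D + Q mouse 3 to 0.33 without vehicle mouse 4 and for adipocytes from -0.17 without vehicle mouse 5 to 0.16 without D + Q mouse 5 (0.083 by limma-voom). Without vehicle mice 2 and 5 the 5 medians were 0.060, -0.045, -0.14, -0.16 and -0.0077. The most counted genes there were Rgs5 in pericytes (0.032, from -0.037 to 0.080 with single mice left out), Pmp22 in Schwann cells (0.21, or 0.10 without vehicle mouse 2 and 0.37 without vehicle mouse 4, and -0.012 without vehicle mice 2 and 5) and Lpl in adipocytes (-0.18, or -0.012 without vehicle mouse 1 and -0.11 without vehicle mouse 2). Of the defining markers of neutrophils Ly6g and Elane were not in the table, and Ms4a1 of B cells was below the count minimum.

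**Figure D4:**
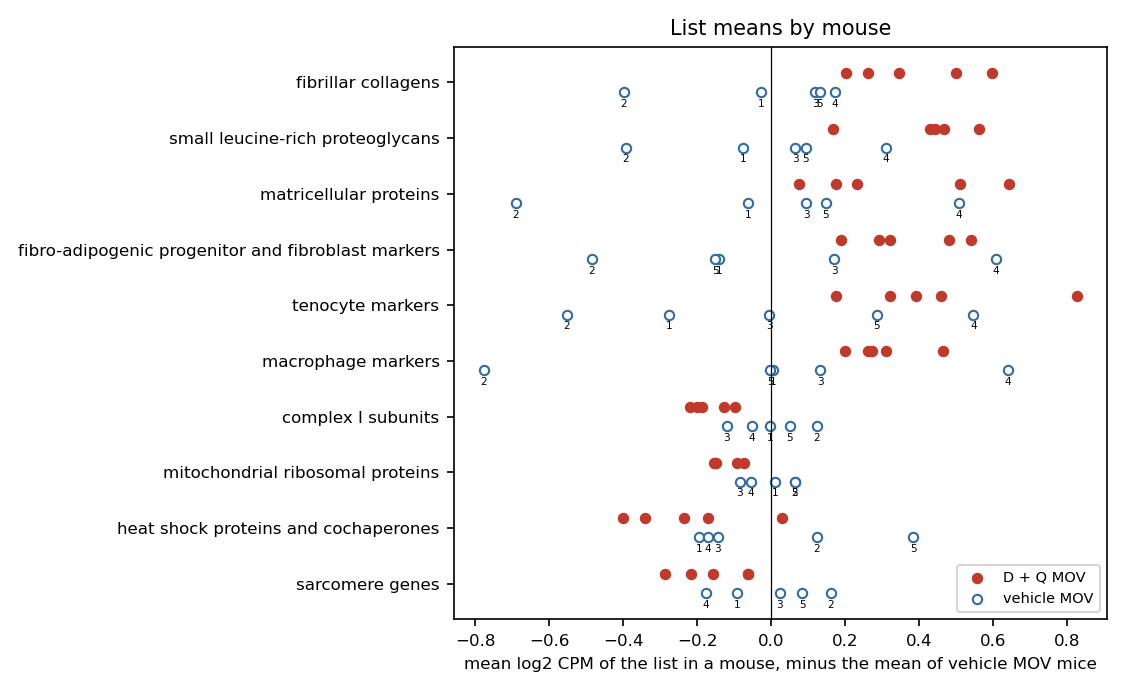
Mean log2 CPM of 10 lists in each MOV mouse, as the difference from the mean of the 5 vehicle mice, with vehicle mice numbered. Vehicle mouse 2 is lowest and vehicle mouse 4 highest among vehicle mice in the macrophage and fibroblast lists, while D + Q mice lie closer together.

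Whether D + Q acted differently in overloaded and sham muscle was tested as the difference between the D + Q effects, over 15700 genes in all 20 mice. Only Tcf15 and Sgk1 were called in this test, 2 genes (0.0127%) after Benjamini-Hochberg adjustment in edgeR, and 897 (5.71%) had an unadjusted p under 0.05. Scaled over all 20 mice, Tcf15 was at 6.38, 6.54, 6.80, 6.21 and 5.40 CPM in D + Q MOV, 8.56, 8.82, 9.80, 9.67 and 8.96 CPM in vehicle MOV, 11.9, 8.41, 10.1, 8.65 and 11.6 CPM in D + Q sham and 6.90, 5.64, 7.93, 6.47 and 6.13 CPM in vehicle sham mice. D + Q mice were below vehicle mice after MOV and above them after sham surgery, with no overlap in either pair. The D + Q effect was -0.55 in MOV and 0.61 in sham muscle, and their difference was -1.16 (SE 0.163, edgeR quasi-likelihood adjusted p = 0.00328). Sgk1, a kinase induced by glucocorticoids and serum, was at 72.9, 68.0, 73.8, 60.7 and 83.1 CPM in D + Q MOV, 61.9, 59.7, 52.1, 57.5 and 80.6 CPM in vehicle MOV, 72.9, 64.8, 67.8, 79.2 and 74.3 CPM in D + Q sham and 166, 139, 161, 173 and 102.7 CPM in vehicle sham mice. Vehicle sham mice stood alone at the high end, and the other 3 groups overlapped. The effect was 0.19 (0.31 without vehicle mouse 5) in MOV and -1.06 in sham muscle, a difference of 1.25 (SE 0.179, edgeR quasi-likelihood adjusted p = 0.00676), which a fit with mouse number as a block took to an edgeR adjusted p of 0.0716. With any 1 of the 20 mice left out the differences stayed between -1.23 and -1.10 for Tcf15 and between 1.18 and 1.36 for Sgk1.

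**Figure D5:**
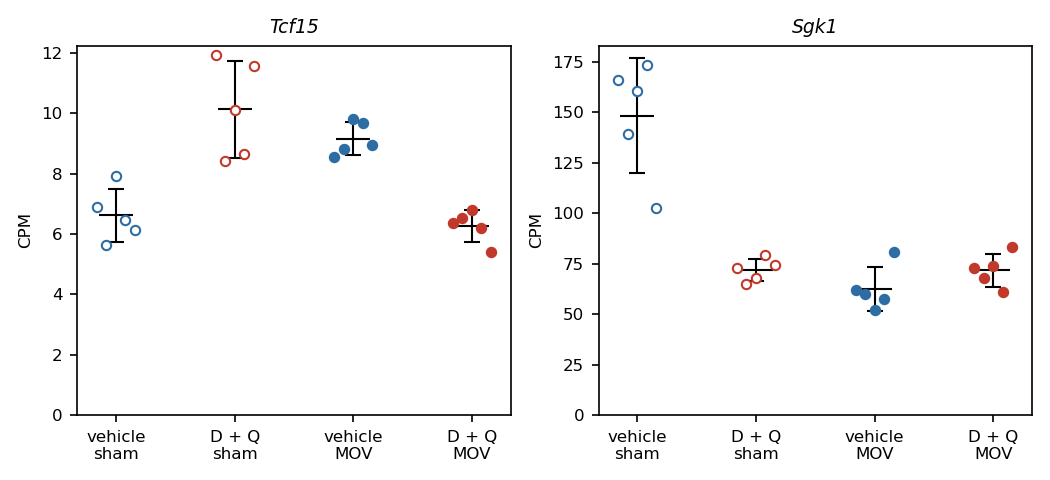
CPM of Tcf15 and Sgk1 in the 4 groups of 5 mice, scaled over all 20 libraries, with points for mice and bars for mean ± SD. Tcf15 is lower with D + Q in MOV and higher in sham mice, and Sgk1 is high in vehicle sham mice.

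For the other lists the sham values stand beside the MOV values without a call of difference, and the MOV and sham comparisons share no mice. Fibrillar collagens had a median D + Q difference of 0.39 in MOV and 0.56 in sham mice, and the nuclear respiratory subunits -0.16 and -0.12. Some lists had a sham median of the other sign, -0.063 for antigen-presenting, 0.030 for T and NK, 0.70 for neutrophil, 0.32 for satellite cell and 0.065 for fiber markers, 0.12 for myogenic, 0.11 for NRF2, 0.029 for atrophy and 0.020 for mTORC1 genes. Ctsk differed by 0.45 and 0.98, Itgbl1 by 0.50 and 0.41, Tfrc by -0.63 and -0.69, and Ckmt2 by -0.36 and -0.29. Timmdc1 (-0.34 and -0.0031), Nudt7 (-0.38 and -0.081) and Nr1d1 (-0.46 and -0.035) were close to 0 in sham mice. The heat shock list had medians of -0.20 and -0.022, the denervation list -0.25 and 0.10, and Csrp3 differed by -0.74 and 0.38. The overload comparison of vehicle MOV with vehicle sham mice shares the vehicle MOV mice, so its values are given only side by side. Overload differences were 4.92 for Col11a1, 4.11 for Ctsk, 3.13 for Itgbl1, 2.34 for Abi3bp and 1.64 for Fmod, against D + Q differences of 0.56, 0.45, 0.50, 0.59 and 0.43. For the lower genes they were -0.73 for Ckmt2, -0.31 for Tfrc and -0.15 for Timmdc1, beside -0.36, -0.63 and -0.34 with D + Q, while Ankrd2 (2.74), Csrp3 (3.44) and Hspb7 (1.91) were higher with overload and lower with D + Q.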

How the data were processed

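The 20 libraries came from whole plantaris. By the submitters' processing notes, reads were aligned with STAR 2.7.8a to GRCm39 and handled in Partek. The authors deposited estimated counts for 22660 genes, and the 29.8% of values that were not whole were rounded. No column was left out (0 not used). Any 2 libraries of a group differed by 6.53 to 68.4 times counting noise, so each was taken as 1 mouse.

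MOV mice were compared by a quasi-likelihood fit in edgeR 4.0.16 under R 4.3.3, robust and TMM-scaled, with Benjamini-Hochberg adjustment. Genes needed 10 counts or more in any 5 mice of the fit. The interaction used all 20 mice and sham values the 10 sham mice. log2 CPM had a prior count of 2. Exact permutation tests were two-sided over 252 divisions, with a smallest p of 0.00794. Positions came from GENCODE (97.1% of tested genes), and 18 names repeat.

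Named genes were those called by edgeR or DESeq2, the 10 with the lowest edgeR p each way among genes at 1 CPM or more, up to 4 members of each list with the lowest p under 0.05 and its most abundant member, genes named in the paper, interaction calls, and the most abundant marker of each cell type. Other genes named are members not tested and the Rn18s share. Some genes that this rule names are not reported here. Members and lists were chosen with earlier results of these data known. Alternatives were DESeq2 1.42.0, RLE factors, total counts, no count minimum, at least 50 counts, limma-voom with quality weights (limma 3.58.1), all 20 mice in 1 fit, mouse number as a block, each mouse left out, and, added after the data were seen, vehicle mice 2 and 5 left out.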

Additional observations from a re-analysis of the deposited data

Results flagged for a closer look

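In groups of 5, a mouse was singled out when its gap to the nearest other mouse was over 0.71 of the group's range on the log2 scale. Of 500 groups examined 20 met this, and chance gives about 1 in 20. Among vehicle MOV mice, mouse 2 was low for Postn (1108 CPM, others 1761 to 1989), Col1a1 (1724 CPM, others 2749.7 to 3061) and the mean log2 CPM of cell cycle genes (2.02, others 2.58 to 2.76). Vehicle mouse 3 was low for Gadd45a (18.5 CPM, others 27.3 to 31.5) and high for Abl1 (69.0 CPM, others 55.0 to 58.7). Vehicle mouse 4 was low for Ckmt2 (760.4 CPM, others 835 to 861) and for the mean of satellite cell markers (1.76, others 2.10 to 2.18), and vehicle mouse 5 was high for Tfrc (190.4 CPM, others 109 to 126).

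Among D + Q MOV mice, mouse 1 was high for Yes1 (19.6 CPM, others 16.5 to 17.3). Mouse 2 was low for Itga11 (29.8 CPM, others 39.1 to 42.8) and high for Sesn1 (35.6 CPM, others 31.2 to 32.4). Mouse 3 was low for Dlat (142 CPM, others 153 to 156) and for the mean of the myostatin axis (3.99, others 4.08 to 4.10). Mouse 4 was low for Cass4 (1.33 CPM, others 1.88 to 2.16), Itpkb (39.6 CPM, others 44.5 to 45.7) and Thy1 (36.1 CPM, others 43.6 to 45.4). Mouse 5 was high for Col11a2 (19.5 CPM, others 14.1 to 15.5), Hspa5 (324 CPM, others 222 to 247), the mean of clock genes (4.93, others 4.83 to 4.86) and the Rn18s share (1.69% of counts, others 1.01 to 1.17%).

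The D + Q effect differed between MOV and sham muscle by -1.16 on the log2 scale for Tcf15 and by 1.25 for Sgk1, each by edgeR's test of the interaction. The causes of these values were not tested.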

How the results depend on the processing

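The number of genes higher at an unadjusted p under 0.05 was 638 by edgeR, between 452 (without D + Q mouse 1) and 1468 (without vehicle mouse 4) with each mouse left out, 962 by limma-voom and 327 without vehicle mice 2 and 5. The number lower was 702, between 474 (without D + Q mouse 1) and 1174 (without vehicle mouse 4), 351 with total counts and 272 without vehicle mice 2 and 5. Calls after adjustment were 0 in edgeR, 0 to 2 with each mouse left out, 2 with mouse number as a block (lowest edgeR adjusted p with the block 0.0474, for Abi3bp) and 11 by DESeq2. They were 0 by limma-voom, and 0 in edgeR with RLE factors, total counts, no count minimum, the higher count minimum or all 20 mice in 1 fit. Interaction calls were 2, and 1 with the block. Mouse numbers are not known to pair animals, and counts limit genes near 1 CPM such as Cass4 and Mrnip.

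With 0 adjusted calls in edgeR, and 11 in DESeq2, a side of the threshold says little for single genes. Of 185 genes under the alternatives, 44 values reversed and 13 gained a call, and 83 genes turned or moved over 1.5 times without vehicle mice 2 and 5. With each mouse left out the ranges of genes that reversed there were -0.036 to 0.092 for Serpine2, -0.0055 to 0.10 for Eif4ebp2, -0.033 to 0.0056 for Nedd4, -0.46 to 0.015 for Pdk4, -0.041 to 0.046 for Ccng1, -0.0027 to 0.082 for Ifi27, -0.049 to 0.088 for Cdk4, -0.13 to 0.019 for Cdkn1a, -0.0014 to 0.39 for Thy1, -0.21 to 0.35 for Ighm, -0.067 to 0.19 for Csf3r, -0.037 to 0.080 for Rgs5 and -0.50 to 0.27 for Hbb-bs. Without vehicle mice 2 and 5 the values were -0.061 for Serpine2, 0.018 for Nedd4, 0.064 for Pdk4, 0.053 for Ccng1, -0.061 for Cdk4, -0.038 for Lyz2, -0.058 for Thy1, -0.076 for Csf3r, -0.011 for Rgs5, -0.012 for Pmp22 and 0.22 for Hbb-bs. Total counts gave 0.045 for Nedd4, 0.049 for Ccng1, 0.012 for Mcl1 and 0.00019 for Cdkn1a. limma-voom gave 0.0073 for Ccng1, 0.15 for Ighm and 0.14 for Hbb-bs, the fit of all 20 mice 0.0010 for Ccng1, and the block 0.093 for Ighm and 0.022 for the erythroid median. The cause was not tested.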

Other observations

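After Tcf15 and Sgk1, the genes with the next lowest p for a difference of the D + Q effect between MOV and sham muscle had no call. In order of p, their differences were 2.52 for Gm15443, -0.55 for Eng, -0.77 for Efna1, -1.09 for Mcf2l, -0.74 for Tinagl1, -1.07 for Fgfr3 and -3.36 for Zcwpw1. The endothelial marker list had a median D + Q difference of -0.083 in MOV and 0.13 in sham mice, beside 0.0020 and -0.0042 over all genes. The meaning of these values was not tested.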
